A study of Homo sapiens with 8 samples.

Results

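The initiator methionine tRNA genes are the 10 rows of the deposited tRNA gene table whose name contains iMet and whose anticodon is CAT, out of 631 genes in all. They were followed in small RNA libraries from 2 lines derived from HEK293T, an immortalised cell line of human embryonic kidney origin. The knockdown line received a CRISPR/Cas9 plasmid with a guide against ADAT2, is described as 1 stable heterozygous line and is labelled with 50% of ADAT2 expression. The plasmid given to the control line had no guide, and its labelled ADAT2 expression is 100%. The table holds tRNA genes alone, so neither the ADAT2 level nor the cell type was checked here. Each line gave 2 libraries, numbered 3 and 4 in both lines and each sequenced on 2 lanes, and nothing in the labels says whether they came from separate cultures. The p-values below therefore measure the spread between libraries, which may be technical and which edgeR pools partly or fully over genes. With 1 line per group an effect of ADAT2 cannot be told apart from anything else that separates the lines. Total counts were 878791 and 1211292 in knockdown libraries 3 and 4, and 698143 and 1069932 in control libraries 3 and 4.

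Initiator tRNA carries the methionine that begins each new protein. It is brought to the small ribosomal subunit by the initiation factor eIF2, while the elongator methionine tRNA, with the same anticodon, places methionine inside the growing chain. ADAT2, with its partner ADAT3, deaminates an adenosine at the wobble base of the anticodon to inosine. The wobble base of the CAT anticodon is a cytosine, so initiator tRNA is not among the tRNAs edited there. Reads from genes with the same mature sequence cannot be told apart inside the tRNA, and the table does not separate whole tRNAs, precursors and fragments.

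The symbols place 8 of the 10 genes, iMet-CAT-1-1 to iMet-CAT-1-8, in 1 group of copies, and the other two, iMet-CAT-2-1 and iMet-CAT-3-1, on their own. The 8 copies share a length of 72 bases and the deposited tRNA score of 68.98, and each matched a RefSeq tRNA gene by position, TRX-CAT1-1 to TRX-CAT1-8. iMet-CAT-2-1 is as long and has a score of 62.43. iMet-CAT-3-1 has 75 bases and a score of 43.49. None of the 10 has an intron in the table.

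Chromosome 6 holds 7 of the genes within 1616039 bases (26286526 to 27902564, hg38). This stretch also contains part of the major histone gene cluster. Of the 34 GENCODE v29 protein-coding genes in the stretch, 21 are named as histone genes. The stretch also holds 110 of the 183 chromosome 6 genes of the table. iMet-CAT-1-2 (26286526 to 26286597, plus strand) lies 887 bases from HIST1H4H, which codes for a histone H4. iMet-CAT-1-3 (26313124 to 26313195) and iMet-CAT-1-4 (26330301 to 26330372) follow on the minus strand, as do iMet-CAT-1-5 (27332985 to 27333056), iMet-CAT-1-6 (27592821 to 27592892) and iMet-CAT-1-7 (27902493 to 27902564). iMet-CAT-2-1 (27777885 to 27777956) is on the plus strand, 29487 bases from HIST1H2BL, a histone H2B gene.

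The other genes are scattered. iMet-CAT-1-1 lies on chromosome 1 (153671250 to 153671321, plus strand), 201 bases from ILF2, and iMet-CAT-1-8 on chromosome 17 (82494721 to 82494792, minus strand), 4183 bases from NARF. These 2 genes stand alone, with their nearest other tRNA genes 3625773 and 7459535 bases away. In contrast, 5 genes of the chromosome 6 stretch have another tRNA gene within 343 to 1933 bases. All 9 genes named so far are between annotated genes, and iMet-CAT-3-1 on chromosome 9 (19403998 to 19404072, plus strand) is in an intron of the long non-coding RNA gene AL391834.3.

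Counts fell into 3 levels (the plot of counts by gene). At the top, iMet-CAT-1-1 had 500 and 1207 counts in knockdown libraries 3 and 4, against 597 and 1200 in control libraries 3 and 4. iMet-CAT-1-2 had 482 and 1227 counts in the knockdown libraries, against 518 and 1162 in the controls. iMet-CAT-2-1 had 515 and 1131 counts in the knockdown libraries, against 510 and 958 in the controls. These 3 genes, all on the plus strand, gave most initiator counts in every library. They ranked 196, 201 and 207 among the 631 genes by total count.

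**Figure D1:**
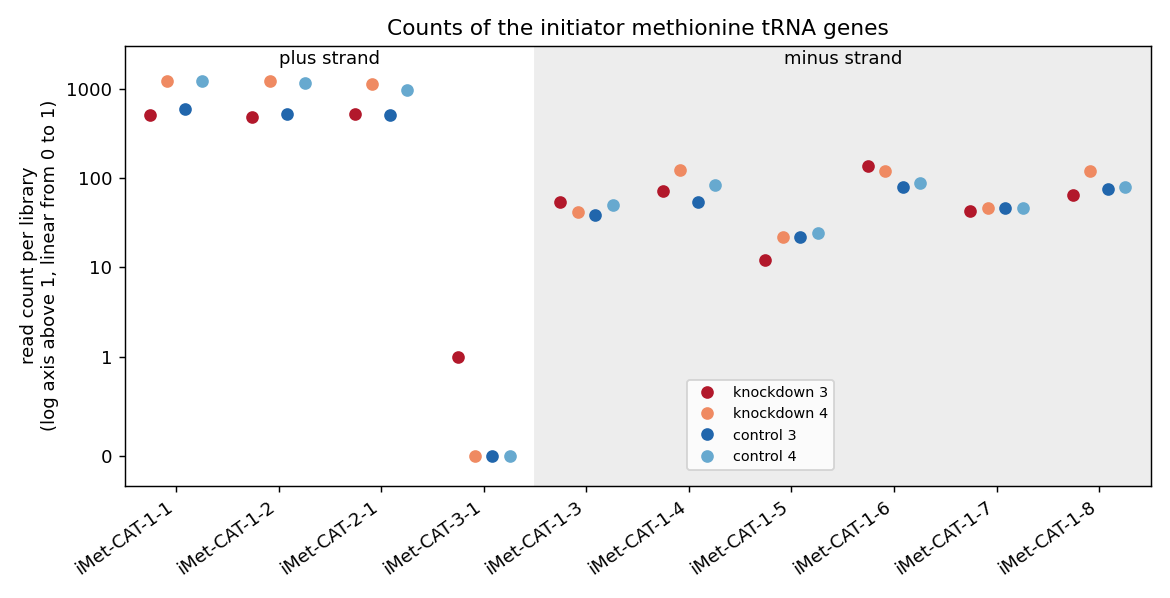
Read counts of the 10 initiator methionine tRNA genes (horizontal axis) in each of the 4 libraries (points, knockdown 3 and 4, then control 3 and 4), on an axis that is logarithmic above 1 and linear from 0 to 1. The shaded genes are on the minus strand. iMet-CAT-1-1, iMet-CAT-1-2 and iMet-CAT-2-1 lie between 482 and 1227 counts, the 6 minus-strand genes between 12 and 135, and iMet-CAT-3-1 has 1 count in all.

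The middle level held the 6 minus-strand genes. iMet-CAT-1-6, the highest of them by total count, had 135 and 119 counts in knockdown libraries 3 and 4, against 80 and 88 in the controls. iMet-CAT-1-8 had 65 and 118 in the knockdown libraries, against 75 and 79 in the controls. iMet-CAT-1-4 had 71 and 122 in the knockdown libraries, against 53 and 84 in the controls. In knockdown library 4 iMet-CAT-1-4 was above iMet-CAT-1-6. The order of iMet-CAT-1-8 and iMet-CAT-1-4 also differed between libraries, so these genes cannot be ranked.

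Below them, iMet-CAT-1-3 had 54 and 41 counts in the knockdown libraries, against 38 and 50 in the controls. iMet-CAT-1-7 had 43 and 46 in the knockdown libraries and 46 in each control library, and its order with iMet-CAT-1-3 was not fixed either. iMet-CAT-1-5 was the lowest of the 8 copies in every library, with 12 and 22 counts in the knockdown libraries, against 22 and 24 in the controls. iMet-CAT-3-1, the gene with the lowest tRNA score, had 1 count in knockdown library 3 and was at 0 in the other three libraries. A count of 0 allows up to 2.48 CPM (counts per 1000000 of the library total) in knockdown library 4, and up to 4.30 and 2.80 CPM in control libraries 3 and 4, taking 3 counts as the limit. It was not tested in the gene fit, which the other 9 genes entered.

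Within the 8 copies, strand and count went together. In each library the lower of the 2 plus-strand copies had more counts than the highest minus-strand copy, by 3.57-fold and 9.89-fold in knockdown libraries 3 and 4 and by 6.48-fold and 13.2-fold in control libraries 3 and 4. Averaged over the copies of a strand, a plus-strand copy had 7.75 and 15.6 times the counts of a minus-strand copy in the knockdown libraries, and 10.7 and 19.1 times in the controls. Over all libraries the mean was 3446.5 counts for a plus-strand copy and 255.5 for a minus-strand copy. The sources used here do not give how reads matching several copies were placed or whether counting used strand. The part of read placement and of transcription of each locus in this split was not tested.

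The 2 plus-strand copies shared their counts almost equally although they lie on different chromosomes. iMet-CAT-1-1 held 50.9% of their sum in knockdown library 3 and 49.6% in knockdown library 4, with 95% Wilson intervals of 47.8 to 54.0 and 47.6 to 51.6. In control libraries 3 and 4 it held 53.5% (50.6 to 56.5) and 50.8% (48.8 to 52.8). An equal split lay inside the interval in every library other than control library 3. These intervals and all below include the error of counting alone, and reads that carry no molecular identifiers may be copies of one molecule.

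The minus-strand copies did not divide their counts equally. An equal split would give each of the 6 a share of 16.7%. iMet-CAT-1-5 held 3.16% (Wilson interval 1.82 to 5.44) and 4.70% (3.12 to 7.01) in knockdown libraries 3 and 4, and 7.01% (4.67 to 10.4) and 6.47% (4.39 to 9.44) in the controls. iMet-CAT-1-6 held 35.5% (30.9 to 40.5) and 25.4% (21.7 to 29.6) in the knockdown libraries, and 25.5% (21.0 to 30.6) and 23.7% (19.7 to 28.3) in the controls. Their intervals lay below and above the equal share in all 4 libraries, although both genes are in the same chromosome 6 stretch and have the same score.

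The strands also differed between replicate numbers. The minus-strand copies gave 27.9% of iMet-CAT-1 counts in knockdown library 3 and 16.1% in knockdown library 4, with intervals of 25.6 to 30.3 and 14.8 to 17.5. In control libraries 3 and 4 they gave 22.0% (19.9 to 24.2) and 13.6% (12.3 to 14.9). In CPM, the summed minus-strand copies stayed between 347 and 450 in all 4 libraries. The summed plus-strand copies had 1117 and 2009 CPM in knockdown libraries 3 and 4, and 1597 and 2208 CPM in the controls. Which strand differs between the numbers depends on the scaling. In CPM it is mainly the plus-strand sum. With TMM scaling the mean log2 change of number 4 over 3 was 0.23 for the plus-strand copies and −0.69 for the minus-strand copies. The minus-strand change less the plus-strand change was −0.92. Of 42 groups with copies on both strands, 5 were at or below this, iMet-CAT-1 included, and the median was 0.10. Others, such as Leu-CAG-2 and Leu-CAG-1, lay further from 0 in the other direction.

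**Figure D2:**
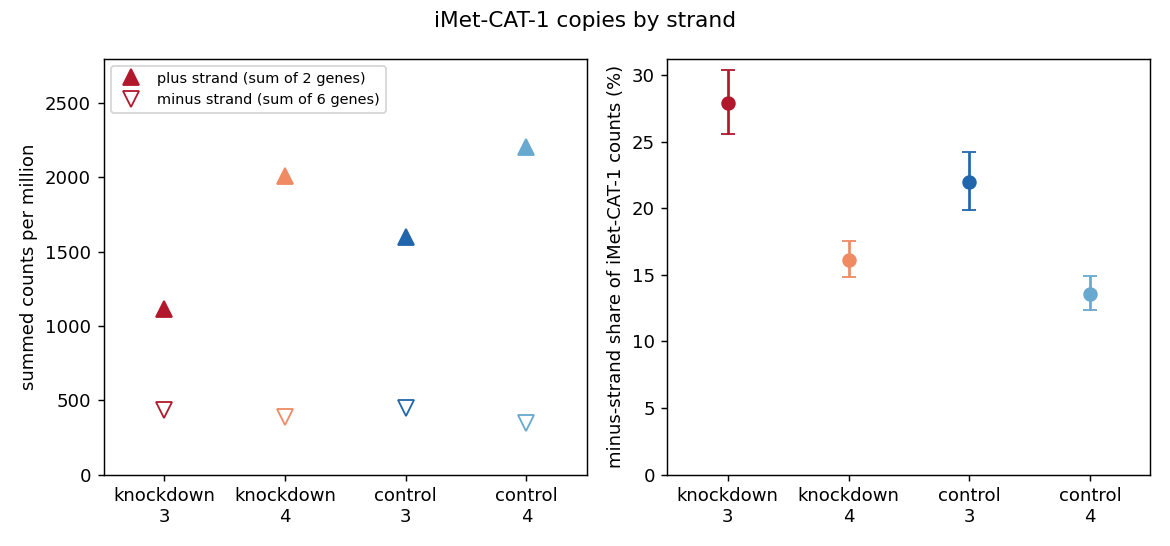
The 8 iMet-CAT-1 copies by strand in each library (horizontal axis, knockdown 3 and 4, then control 3 and 4). Left, summed CPM of the 2 plus-strand copies (filled triangles) and of the 6 minus-strand copies (open triangles); right, the percentage of iMet-CAT-1 counts on the minus strand, with 95% Wilson intervals. The minus-strand share was 27.9% and 16.1% in the knockdown libraries and 22.0% and 13.6% in the controls.

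Within each number the minus-strand share was higher in the knockdown library, by 5.93 percentage points in number 3 and 2.55 in number 4. The group means were 22.0 ± 8.33% in knockdown and 17.8 ± 5.94% in control cells (SD, n = 2 each), and the groups overlapped (two-sided exact permutation p = 0.667, and 0.667 after Benjamini-Hochberg adjustment over 4 share tests). The spread between numbers was larger than the difference between lines, and without knockdown library 3 the difference of the means turned to −1.65 percentage points. With 2 against 2 libraries the smallest p such a test can give is 0.33.

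With edgeR's quasi-likelihood test for the number, with the group as a second term, iMet-CAT-1-6 was lower in number 4 by a log2 change of −1.01 ± 0.23, iMet-CAT-1-3 by −0.98 ± 0.30 and iMet-CAT-1-7 by −0.92 ± 0.30 (SE; 2 libraries per number; edgeR adjusted p = 3.94e-05, 0.00217 and 0.00400). These were 3 of the 9 tested genes, beside 37.4% of all 489 tested genes called lower in number 4. None of the 9 was called higher in this fit, beside 40.3% of all genes. An unadjusted p under 0.05 was found for 4 of the 9, beside 386 of all 489. The fit pooled the spread over all genes, so its p-values do not measure each gene's own spread between libraries. The plus-strand genes had log2 changes of 0.17, 0.29 and 0.05. These calls depend on the scaling: with library totals in place of TMM, edgeR's default scaling, 1 initiator gene was called lower and 3 higher. Of all 489 genes, 130 were then called lower and 235 higher.

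Other groups of copies were split by strand as well (the plot of copy groups by strand). In the table, 43 groups of copies with counts have genes on both strands. The plus-strand mean was higher in 21 and the minus-strand mean in 22. The ratio for iMet-CAT-1 was 13.5-fold, or 3.75 on the log2 scale, and 4 of the 43 groups, iMet-CAT-1 included, were at least that far from 0 in either direction. The median distance from 0 was 0.83. Among the 23 groups with at least 4 copies, the strands were fully separated by total count in 14, with the plus strand above in 7 and the minus strand above in 7. The 14 include iMet-CAT-1. Some of them, such as Cys-GCA-2 and Leu-CAG-1, have only 1 copy on a strand, so separation means only that this copy is highest or lowest. Separation also occurred in other groups with several copies on each strand, such as Pro-AGG-2 and His-GTG-1.

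**Figure D3:**
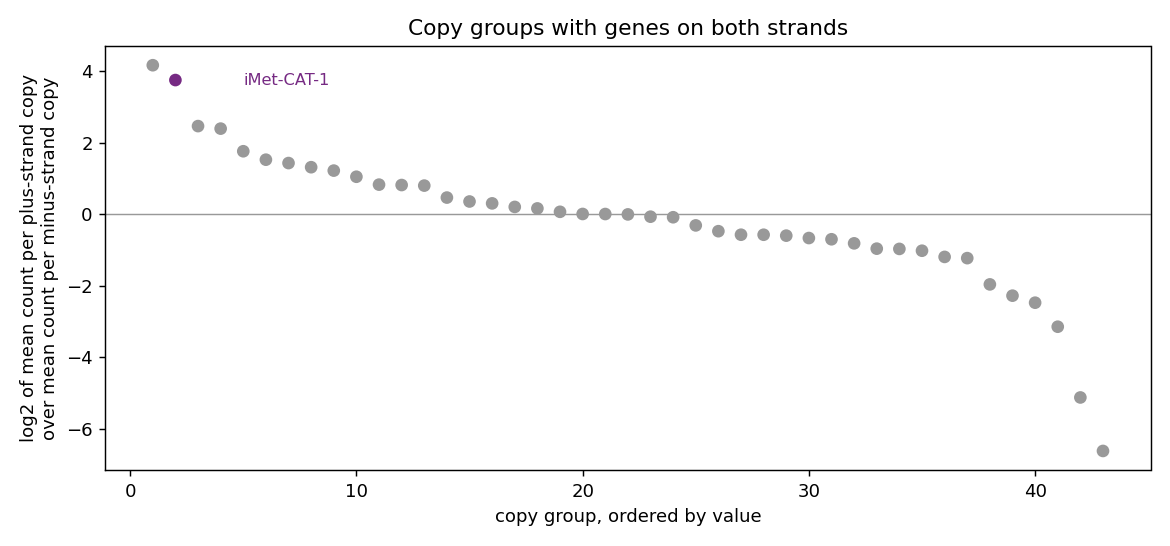
Log2 ratio of the mean count of plus-strand copies to that of minus-strand copies (vertical axis, totals of all 4 libraries) for the 43 copy groups with genes on both strands, ordered by value (horizontal axis). The coloured point is iMet-CAT-1 at 3.75; 21 groups lie above 0 and 22 below.

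The design sets cells with lowered ADAT2 against cells with the labelled full level. As a family, the initiator genes had 1878 and 4033 counts in knockdown libraries 3 and 4, against 1939 and 3691 in control libraries 3 and 4. They made up 0.214% (Wilson interval 0.204 to 0.224) and 0.33% (0.323 to 0.343) of all counts in the knockdown libraries, and 0.278% (0.266 to 0.290) and 0.345% (0.334 to 0.356) in the controls. Knockdown library 3 was the lowest of the 4, and knockdown library 4 lay between the controls. This order is that of library totals, and with the gene-level TMM factors the summed initiator counts were lower in both knockdown libraries than in both controls. TMM factors moved the log2 ratio of number 4 by −0.26 at the gene level and by 0.15 at the family level. Within number 3 the knockdown share was 0.769 times the control share, a gap wider than counting error, and within number 4 it was 0.965 times, with overlapping intervals. The means were 0.273 ± 0.0843% in knockdown and 0.311 ± 0.0475% in control cells (SD, n = 2 each; two-sided exact permutation p = 0.667). The difference of the means was −0.0380 percentage points, and 0.0216 without knockdown library 3. By mean share the family ranked 38 of 56.

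In edgeR's fit of summed families the summed initiator genes gave −0.19 ± 0.45 for the log2 fold change of knockdown over control (SE, 2 libraries each; edgeR adjusted p = 0.994). The difference was smaller than its error. None of the 52 families tested was called (0%), 0 had an unadjusted p under 0.05, and by DESeq2 the number called was 0 of 56. Summed by copy group, iMet-CAT-1 had a log2 fold change of −0.32 ± 0.63 and iMet-CAT-2 of −0.20 ± 0.55 (SE; edgeR adjusted p = 0.999 for both). Of 326 copy groups 0% was called, 1 had an unadjusted p under 0.05, and by DESeq2 the number called was 0 of 409. These fits leave the replicate number out. With it as a second term, edgeR gave −0.19 ± 0.21 for the family, −0.32 ± 0.17 for iMet-CAT-1 and −0.20 ± 0.17 for iMet-CAT-2. None of them passed (edgeR adjusted p = 0.714, 0.271 and 0.544).

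At the level of genes, 0 of the 9 tested initiator genes passed edgeR's test, 0 had an unadjusted p under 0.05, and DESeq2 called none of the 10. This equals the background, since 0% of the 489 genes passed, 1 had an unadjusted p under 0.05, and by DESeq2 the number called was 0 of 574. The log2 fold changes of the 9 genes ran from −0.88 to 0.33 with a median of −0.22, beside a median of −0.03 over all genes. They were below 0 for 7 of 9, beside 53.0% of all genes. The 3 abundant genes had −0.47 ± 0.71 (iMet-CAT-1-1), −0.36 ± 0.71 (iMet-CAT-1-2) and −0.22 ± 0.69 (iMet-CAT-2-1), each smaller than its SE in this fit. Without control library 4 these were −0.31, −0.11 and −0.12, and without knockdown library 3 they were −0.32, −0.17 and −0.13. iMet-CAT-1-5 had the lowest value, −0.88 ± 0.95, from the fewest counts of the 9, and had −0.44 without control library 3. The median over all genes moved to 0.11 with library totals in place of TMM. With these totals iMet-CAT-1-1, iMet-CAT-1-2 and iMet-CAT-2-1 had −0.34, −0.23 and −0.10, while iMet-CAT-1-3 and iMet-CAT-1-6 hardly moved. All these fits leave the replicate number out. With TMM and the number as a second term, the 3 abundant genes had −0.47 ± 0.19, −0.36 ± 0.18 and −0.22 ± 0.18. Each was then larger than its SE, but none of them passed (edgeR adjusted p = 0.105, 0.253 and 0.575).

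Within a number, the ratios of knockdown to control CPM put the abundant genes close together (the plot of ratios within each number). iMet-CAT-1-1 had log2 ratios of −0.59 ± 0.09 in number 3 and −0.17 ± 0.06 in number 4, where the error is from counting alone. iMet-CAT-1-2 had −0.44 ± 0.09 and −0.10 ± 0.06, and iMet-CAT-2-1 had −0.32 ± 0.09 and 0.06 ± 0.06. By library totals, in number 3 all 3 were lower in the knockdown library by more than counting error, and in number 4 they were closer to 0. In number 4, iMet-CAT-1-1 and iMet-CAT-1-2 were again lower by more than their counting error. TMM factors of the gene fit would add 0.07 to ratios of number 3 and −0.26 to those of number 4. These shifts bring the numbers close together for all 3 genes and make iMet-CAT-2-1 lower in both. They also bring iMet-CAT-1-6, described next, to about 0 in number 4.

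**Figure D4:**
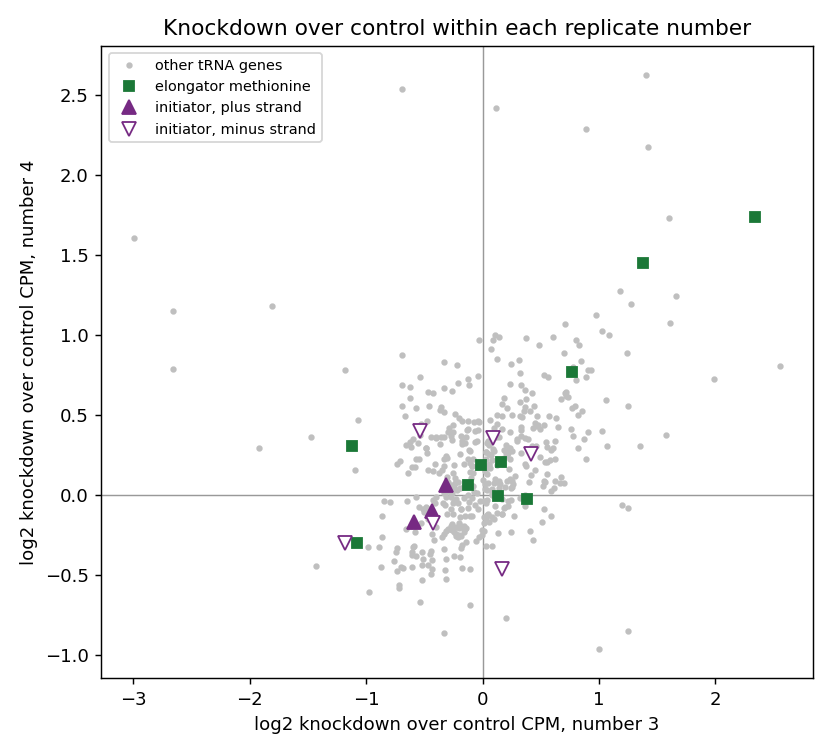
Log2 ratio of knockdown to control CPM of each of the 489 tested genes within number 3 (horizontal axis) and within number 4 (vertical axis), each from 1 library per line. Filled triangles are initiator genes on the plus strand, open triangles those on the minus strand, squares elongator methionine genes and dots all others. The plus-strand initiator genes lie between −0.59 and −0.32 in number 3 and between −0.17 and 0.06 in number 4.

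The minus-strand genes spread more widely, on far fewer counts. For numbers 3 and 4 the log2 ratios of iMet-CAT-1-6 were 0.42 ± 0.20 and 0.25 ± 0.20, and iMet-CAT-1-4 had 0.09 ± 0.26 and 0.36 ± 0.20. iMet-CAT-1-5 had −1.18 ± 0.51 and −0.30 ± 0.42, and iMet-CAT-1-7 had −0.43 ± 0.30 and −0.18 ± 0.30. iMet-CAT-1-8 (−0.54 ± 0.24 and 0.40 ± 0.21) and iMet-CAT-1-3 (0.17 ± 0.30 and −0.46 ± 0.30) had opposite signs in the 2 numbers. Of the 9 tested genes, 4 were below 0 in both numbers and 2 above, beside 25.4% and 38.4% of all tested genes. In CPM, iMet-CAT-1-5 was lower in both knockdown libraries than in both controls and iMet-CAT-1-4 was higher in both, beside 5.52% and 8.18% of all tested genes. Counts of 1 in 9 each way are near those shares and are no result about the initiator genes. These counts depend on the scaling. With gene-level TMM scaling, iMet-CAT-1-1, iMet-CAT-1-2, iMet-CAT-2-1 and iMet-CAT-1-5 were lower in both knockdown libraries than in both controls. iMet-CAT-1-4 then overlapped. The share of all tested genes under that scaling was not computed, so no result is drawn from it either.

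The elongator methionine tRNA reads the same codon, so the initiator genes were next set against the 12 elongator methionine genes of the table within each library. Of all methionine CAT counts, 44.5% came from initiator genes in knockdown library 3 and 51.4% in knockdown library 4, with Wilson intervals of 43.0 to 46.0 and 50.3 to 52.5. In control libraries 3 and 4 they gave 61.5% (59.8 to 63.2) and 60.4% (59.2 to 61.6). Both knockdown libraries were below both controls, with differences of −16.96 and −8.99 percentage points within numbers 3 and 4, and no interval of a knockdown library reached that of a control. The means were 48.0 ± 4.87% in knockdown and 61.0 ± 0.769% in control cells (SD, n = 2 each). The two-sided exact permutation p was 0.33, the smallest possible with 2 against 2 libraries, and 0.666 after adjustment over 4 share tests.

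**Figure D5:**
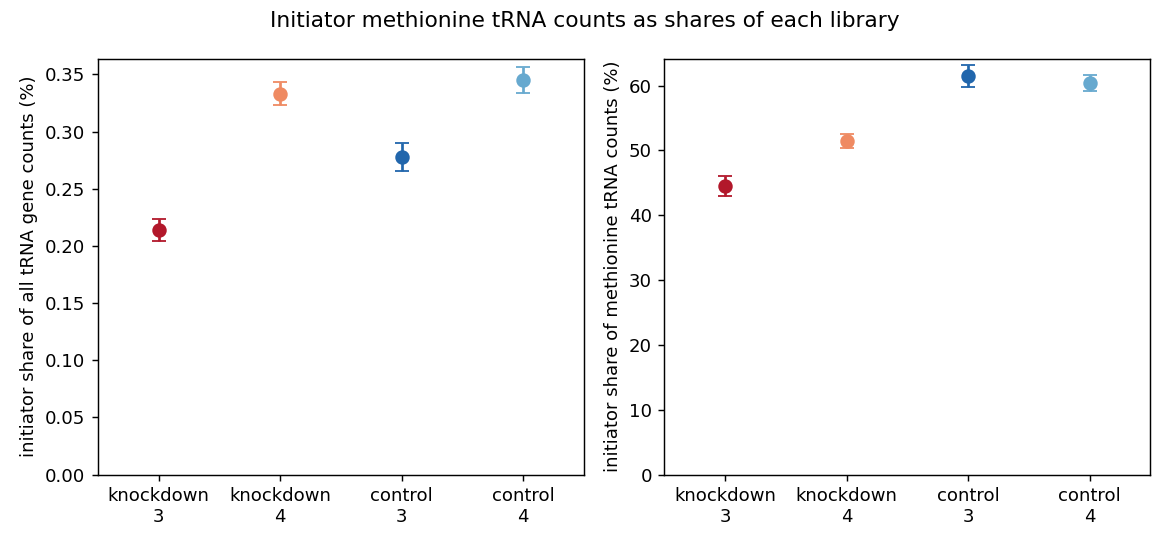
Initiator methionine tRNA counts in each library (horizontal axis, knockdown 3 and 4, then control 3 and 4) as a percentage of all tRNA gene counts (left) and of initiator plus elongator methionine counts (right), with 95% Wilson intervals. On the right both knockdown libraries (44.5% and 51.4%) lie below both controls (61.5% and 60.4%), while on the left knockdown library 4 lies between the controls.

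In shares of all counts, the lines differed more for the elongator than for the initiator genes. Elongator genes took 0.266% and 0.315% of all counts in knockdown libraries 3 and 4, against 0.174% and 0.226% in the controls. Of the elongator genes, 10 of 12 were tested and 0 passed edgeR's test without the number as a term, with 1 at an unadjusted p under 0.05. With the number as a term, Met-CAT-5-1, Met-CAT-chr6-167 and Met-CAT-1-1 passed, all higher in knockdown (edgeR adjusted p = 2.37e-16, 4.32e-09 and 0.0169). Of all 489 tested genes, 26 were called higher in that fit. It pooled the spread over all genes, so these p-values do not measure each gene's own spread between libraries. The summed elongator family did not pass with the number as a term (log2 0.57 ± 0.09, SE, edgeR adjusted p = 0.202). In the fit without it, 5 of the 10 genes were below 0 and 5 above. Met-CAT-5-1 had 475 and 443 counts in the knockdown libraries, against 74 and 117 in the controls, and Met-CAT-chr6-167 had 584 and 492, against 178 and 159. Without these 2 genes, a choice made after their values were seen, the initiator share was 59.5% and 58.4% in the knockdown libraries and 66.8% and 63.3% in the controls. Summed over the 4 libraries, the 2 elongator genes with the most counts were Met-CAT-6-1, with 263 and 727 counts in the knockdown libraries against 191 and 645 in the controls, and Met-CAT-1-1, with 241 and 821 against 112 and 426. In knockdown library 3, however, Met-CAT-chr6-167 and Met-CAT-5-1 were above both, and Met-CAT-chr6-167 was also above iMet-CAT-1-1.

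iMet-CAT-2-1 held a steady part of the initiator counts, with 27.4% and 28.0% in knockdown libraries 3 and 4 and 26.3% and 26.0% in the controls. The difference of 1.60 percentage points between the means (27.7 ± 0.439% in knockdown and 26.1 ± 0.246% in control cells, SD, n = 2 each) was in the same direction in both numbers, but the Wilson intervals overlapped in each number (25.5 to 29.5 against 24.4 to 28.3 in number 3, and 26.7 to 29.5 against 24.6 to 27.4 in number 4). The two-sided exact permutation p was 0.33, or 0.666 after adjustment over 4 share tests.

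A fixed list of 8 families was taken as those whose wobble adenosine ADAT2 and ADAT3 deaminate. They are Val-AAC, Thr-AGT, Ser-AGA, Leu-AAG, Ile-AAT, Pro-AGG, Arg-ACG and Ala-AGC. Other genes of the table with an adenosine there, such as Cys-ACA-1-1 and Ser-ACT-1-1, are not on this list. Of the 116 genes in the 8 listed families 99 were tested and 0 passed, as for the initiator genes. Their median log2 fold change was 0.11, beside −0.22 for the initiator genes. The difference between these lists was not tested.

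Across the 4 libraries, TMM-scaled log2 CPM of the summed initiator counts, centred on its mean, was −0.18 and −0.13 in knockdown libraries 3 and 4, and 0.13 and 0.18 in control libraries 3 and 4. The 5 other genes with the closest profiles were Val-CAC-1-1, Arg-TCG-3-1, Arg-CCT-3-1, Val-TAC-1-1 and Val-TAC-4-1, with a root mean square distance of 0.06 to 0.10 on the log2 scale over 4 libraries. The median distance of the 480 other tested genes was 0.65. Arg-TCG-3-1, for example, had 310 and 747 counts in the knockdown libraries, against 342 and 700 in the controls. Arg-TCG-3-1 is also the tRNA gene of the table nearest to iMet-CAT-1-8 on chromosome 17, but lies 7459535 bases away. iMet-CAT-1-8 itself was at a distance of 0.32 from the summed profile. The distances of iMet-CAT-2-1 (0.04), iMet-CAT-1-1 (0.11) and iMet-CAT-1-2 (0.12) are largely fixed by construction, since these genes make up most of the sum. The minus-strand genes, with few counts in the sum, were at 0.26 to 0.60.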

How the data were processed

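Per the labels' protocols, total RNA was extracted with TRIzol and made into small RNA libraries, and fragments of 160 to 220 base pairs were kept. The authors deposited raw counts for each tRNA gene, 1 column per library code. The codes tie each column to both lanes of a replicate in the labels. The submitters' processing notes list Bowtie2 2.2.2, hg38 and GRCh38, and the labels name summarizeOverlaps for counting. The sources used here do not say how strand and reads with several matches were handled. The tRNA score of each gene, and the other gene properties (length, intron, a mismatch number), are as deposited by the authors.

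Counts per gene, per anticodon family (initiator apart from elongator) and per number in the symbol were tested with edgeR 4.0.16 in R 4.3.3 (filterByExpr with a minimum count of 10, TMM, quasi-likelihood test, Benjamini-Hochberg threshold 0.05) over the 2 knockdown and 2 control libraries. An SE is the fold change over the root of the F statistic. DESeq2 1.42.0, other scalings, no filter, the number as a term and leaving out libraries were alternatives. Ratios within a number add 0.5 to each count. Shares were compared by exact permutation, with Wilson intervals at 95% from scipy 1.17.1. Gene positions were set against GENCODE v29 and RefSeq GRCh38.p14, and 8 of 10 genes matched RefSeq. The edgeR gene fits with and without the number as a term were also run on simulated counts, and the outcome is not reported here.

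All 10 initiator genes, the elongator genes with the 2 of most counts, and the 5 genes nearest in profile were named by rule. The members, lists and tests were chosen with earlier results of these data known. The comparison of numbers and of strands was added after the data were seen.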

Additional observations from a re-analysis of the deposited data

How the results depend on the processing

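No initiator gene, copy group or family passed under any of the 8 alternatives. Without the number as a term, they were library totals, RLE, TMM from genes outside the listed wobble-adenosine families, no filter and DESeq2. With the number as a term, they were TMM, DESeq2 and library totals. The fold changes of the family, both copy groups and the 9 genes kept their sign under these 8. In DESeq2 with the number as a term, iMet-CAT-1-5 had no adjusted p and so could not pass. Replicate block: the labels do not say that a number marks a batch, but same-numbered libraries deviated together (correlation 0.924 across 489 genes). With the block edgeR called 39 genes, 0 families and 45 copy groups, with DESeq2 24 genes, 1 family and 10 copy groups, and with library totals 76 genes, 5 families and 52 copy groups, against 0 without it. Among the elongator genes the block called Met-CAT-5-1, Met-CAT-chr6-167 and Met-CAT-1-1 higher in knockdown (edgeR log2 1.93 ± 0.21, 1.32 ± 0.19 and 0.66 ± 0.19, adjusted p = 2.37e-16, 4.32e-09 and 0.0169). That gene fit pooled the spread over all genes, so its p-values do not measure each gene's own spread. The smallest adjusted p of an initiator gene with the block was 0.105 (iMet-CAT-1-1, log2 −0.47 ± 0.19, edgeR), and 0.153 and 0.306 with library totals and DESeq2. The 2 fits beyond edgeR with TMM were added after seeing the data. The cause of the differing counts of calls was not tested.

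Leaving out 1 library assumes that the lone library left varies like the other group. Without 1 library in turn, log2 fold changes ran from −0.38 to −0.18 for the family, −0.52 to −0.15 for iMet-CAT-1 and −0.42 to −0.01 for iMet-CAT-2. The share of all counts (knockdown minus control, percentage points) ran from −0.0977 to 0.0216, positive without knockdown library 3, and the share of methionine counts from −16.4 to −9.54. The minus-strand share ran from −1.65 (without knockdown library 3) to 10.1. iMet-CAT-1-1 ran from −0.58 to −0.31, iMet-CAT-1-2 from −0.51 to −0.11, iMet-CAT-2-1 from −0.26 to −0.12, iMet-CAT-1-4 from 0.04 to 0.27, iMet-CAT-1-5 from −1.13 to −0.44, iMet-CAT-1-3 from −0.94 to 0.48, iMet-CAT-1-6 from −0.38 to 0.83, iMet-CAT-1-7 from −0.90 to 0.12 and iMet-CAT-1-8 from −0.48 to 0.26. The sign turned without knockdown library 3 for iMet-CAT-1-6, without control library 3 for iMet-CAT-1-8, and without either knockdown library 4 or control library 3 for iMet-CAT-1-3 and iMet-CAT-1-7. With library totals 1 initiator gene was lower and 3 higher in number 4, beside 130 and 235 of all 489 genes. Using TMM outside the listed wobble-adenosine families 2 were higher, beside 218 of 489 genes. With no filter 1 was higher, beside 210 of 574.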
